A study of Mus musculus with 29 samples.

Results

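Hepatic Ly6C low macrophages were compared with hepatic Ly6C high macrophages, with 3 libraries of each subset, all from wild-type mice. These 6 libraries belong to a series of 29. Genes entered the comparison when they reached at least 1 RPM (reads scaled to a common library total) in at least 3 of the 6 libraries. The data hold 23930 genes. Of these 11688 reached the minimum, 12242 stayed under this minimum, and 5069 were at 0 in all 6 libraries.

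The study sorted macrophages from the liver and spleen of wild-type mice and of Rnaset2-/- mice, which lack RNase T2, a lysosomal enzyme that degrades RNA. All groups used here came from untreated C57BL/6 mice, and the study kept male and female animals, whose age is not given in the sources used here. By their labels both hepatic subsets were CD11b(+), Ly6G(-), SiglecF(-) and NK1.1(-), and the Ly6C low subset was also Fcgr4(+). The sorted KCs set beside them, with 4 libraries, were gated as F4/80(+), CD11b(int), Tim4(+) and PDCA-1 low, and the Rnaset2-/- liver subsets, with 3 libraries each, as the wild-type ones; the Rnaset2 genes, deleted in these mice, were not analysed here. The labels do not say whether replicates came from separate animals, so that p-values measure only the spread between these libraries, which may be technical.

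Ly6C high cells resemble classical monocytes, which leave the bone marrow through the chemokine receptor CCR2, enter inflamed tissue and can mature there. Ly6C low cells resemble patrolling monocytes, which arise from Ly6C high cells under the control of NR4A1 and survey the vessel wall. The liver also holds Kupffer cells (KCs), the resident macrophages of the sinusoids, macrophages of its capsule, and dendritic cells, so that a gate on Ly6C, CD11b and FCGR4 can take in more than blood monocytes. In bulk samples such as these, fewer cells of a type cannot be told apart from less RNA per cell.

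The 6 libraries held 11175843 to 12956956 reads (median 11729521), and 3 reads, taken as the smallest detectable level, corresponded to 0.2315 to 0.2684 RPM, which covers counting error only. Xist was read in all 6 libraries, at 321 to 539 RPM, whereas Y-linked genes were at 0 in replicate 1 of both subsets and summed to 28.95 to 52.03 RPM in replicates 2 and 3. No pair of replicates was alike within counting error. The kit amplifies a fixed amplicon per gene, so that levels are compared between libraries and not between genes.

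Between the subsets, 612 genes (5.24% of those tested) were higher and 566 (4.84%) were lower in Ly6C low macrophages, at >1.5-fold and an adjusted p below 0.05 (limma, two-sided, Benjamini-Hochberg adjustment over all tested genes). In all, 10.1% of tested genes were called, and 1174 of these 1178 genes had no overlap between the 3 libraries of each subset, against 29.9% of all tested genes. Calls and overlap rest on the same libraries, so that the lack of overlap is no independent support. More than 4-fold, 103 genes were higher and 59 were lower. Without scaling factors the split was 789 higher and 418 lower, and the median log2 fold change of all genes moved from 0.021 to 0.114. Leaving out 1 library gave 303 to 550 higher and 274 to 491 lower genes, the lowest of both without replicate 3 of Ly6C low, and without replicate 3 of Ly6C high the counts were 390 and 332.

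**Figure D1:**
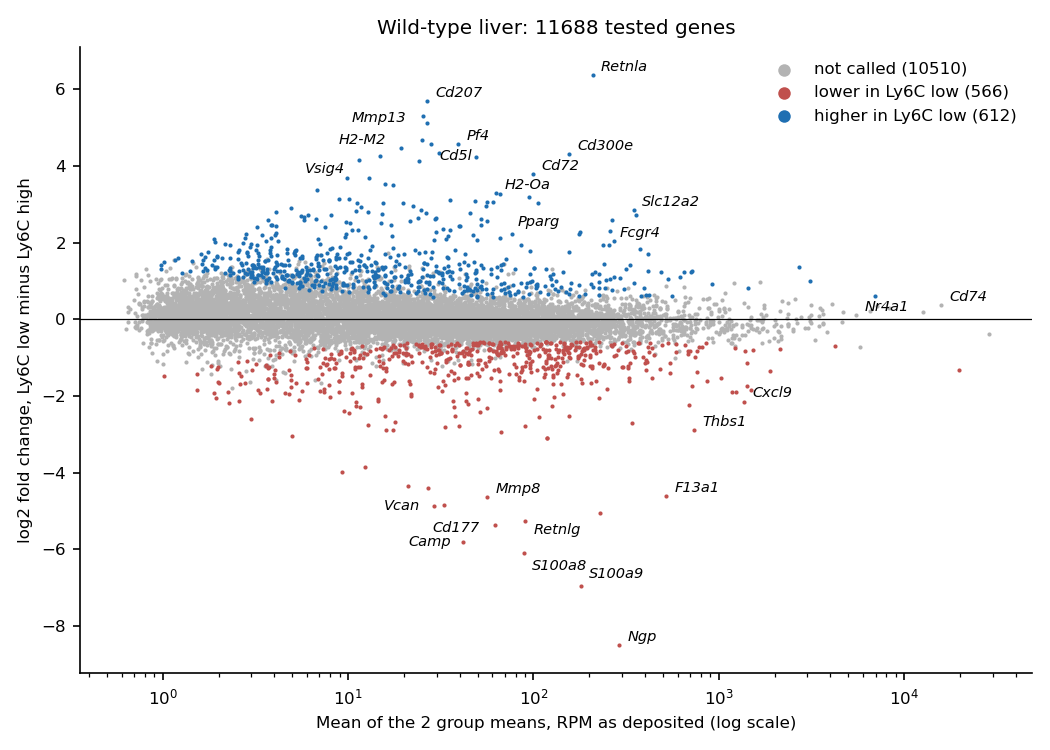
Log2 fold change between the subsets (y axis, Ly6C low minus Ly6C high, limma on log2(RPM/factor + 1)) against the mean of both group means (x axis, RPM, log scale) for the 11688 tested genes, 1 point each; colors mark the 612 higher and 566 lower genes. Retnla, at a log2 fold change of 6.36, and Ngp, at -8.49, are the most distant named points in each direction.

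The genes of the sorting gate were read first as a check of the labels and are no finding. Fcgr4, which encodes the receptor FCGR4 (CD16.2) used to sort the Ly6C low subset, stood at 501, 405 and 398 RPM in the 3 Ly6C low libraries and at 88.3, 77.2 and 74.6 RPM in the 3 Ly6C high libraries. Itgam, which encodes CD11b, was at 1420.0 ± 90.7 RPM (SD, n = 3) in Ly6C low and 1481 ± 302 RPM in Ly6C high macrophages. Adgre1 encodes F4/80, which the labels of these subsets do not name but the methods of the study use to sort hepatic macrophages. It was at 306 ± 32.7 RPM in Ly6C low and 122 ± 34.96 RPM in Ly6C high macrophages, a difference called except with replicates 2 and 3 alone. The Ly6c genes were not analysed here.

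Genes of classical monocytes were lower in Ly6C low macrophages. Of 20 tested members of this list 17 were lower and none was higher, with a median log2 fold change of -1.48 against 0.021 for all tested genes. F13a1 (chr13:36867178-37050244, GRCm38), the A subunit of coagulation factor XIII, was at 37, 43.8 and 48.3 RPM in the Ly6C low libraries and at 838, 1080.1 and 1066 RPM in the Ly6C high libraries. All Ly6C low libraries lay far below all Ly6C high ones, by 23.1-fold on the means (log2 fold change -4.61 ± 0.16, adjusted p = 9.28e-07). Vcan, the matrix proteoglycan versican, was at 0.745, 2.09 and 0.716 RPM against 51.9, 63.2 and 55.9 RPM (-4.87 ± 0.25, adjusted p = 9.14e-06). The difference in Ccr2 was smaller: this chemokine receptor gene was at 219, 142 and 154 RPM in Ly6C low and 558, 548 and 352 RPM in Ly6C high macrophages (-1.60 ± 0.23, adjusted p = 0.00256). Fn1, which encodes fibronectin, and Thbs1, which encodes thrombospondin 1, had log2 fold changes of -1.75 ± 0.27 and -2.90 ± 0.41 (adjusted p = 0.00391 and 0.0023). Cd14, the co-receptor for lipopolysaccharide, was lower, at 249 ± 78.3 RPM against 558 ± 102 RPM. Mmp8, a collagenase stored in granules, was at 4.06, 3.66 and 3.4 RPM against 107, 107 and 113 RPM, 29.4-fold lower in Ly6C low macrophages. The C-type lectin genes Clec4d and Clec4e were also lower, but neither was called in a single fit of all 29 libraries.

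Genes of neutrophils and their precursors were among those with the largest negative differences, and here the Ly6C high libraries differed among themselves. Ngp, a neutrophilic granule protein gene, was at 76.3, 959 and 709 RPM in the Ly6C high libraries and at 0.166, 0 and 0.089 RPM in the Ly6C low libraries. S100a9, which encodes a subunit of calprotectin, was at 67.5, 637 and 369 RPM against 0.083, 2.09 and 1.97 RPM (log2 fold change -6.96 ± 0.71, adjusted p = 3.88e-04). Replicate 1 of Ly6C high was several times below replicates 2 and 3 in both. Of 13 tested genes of the neutrophil list 8 were lower and none was higher, and 7 to 9 were lower when 1 library was left out. The 16 genes of this list in the table summed to 157.1 to 213.0 RPM in Ly6C low libraries and to 342.1, 2643 and 1926 RPM in Ly6C high replicates 1 to 3. Ly6g, the antigen gated out, was at 0 in all Ly6C low libraries and at 0, 0.584 and 0.626 RPM in the Ly6C high libraries (a gene chosen after its values were seen). How far cells of this kind took part in the lower genes of the whole comparison was not tested.

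Cd177, a neutrophil surface protein gene, Retnlg, a resistin-like gene, and Jchain, the joining chain of secreted antibodies, also ranked among the 15 lowest. Cd177 was at 76.6, 128 and 162 RPM in Ly6C high and 1.99, 1.57 and 2.595 RPM in Ly6C low libraries. Jchain was at 34.4, 42.4 and 79.7 RPM against 0.497, 2.53 and 1.97 RPM. Fcnb, the gene of ficolin B, was at 0 in all Ly6C low libraries and at 4.17, 30.5 and 20.8 RPM in Ly6C high libraries, at least 71.4-fold higher in the latter against a floor of 3 reads per library. Prg2, an eosinophil granule protein gene, was at 2.24, 71.3 and 124 RPM in the Ly6C high libraries against 0.083, 0.087 and 0.179 RPM, and its call was lost without replicate 2 or 3 of Ly6C high and without replicate 1 or 3 of Ly6C low. It was also no longer called without a filter, and its 3 Ly6C high libraries lay far apart.

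The gene with the largest positive difference was Retnla (chr16:48842551-48844461), which encodes the secreted protein RELMα, a product of macrophages stimulated by IL-4. Retnla was at 418, 389 and 431 RPM in the Ly6C low libraries and at 3.16, 4.005 and 3.94 RPM in the Ly6C high libraries. It was 112-fold higher on the means (log2 fold change 6.36 ± 0.15, adjusted p = 8.51e-08), and the spread within each subset was narrow.

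Cd207 (chr6:83671215-83677857), which encodes the lectin langerin, was at 39.8, 56.6 and 64.2 RPM in Ly6C low libraries and at 0 in all Ly6C high libraries, at least 214-fold higher against a floor of 3 reads per library. The matrix metalloproteinase genes Mmp13 and Mmp12 followed the same order. Mmp13 was at 41.6, 48.02 and 61.02 RPM against 0.232, 0.334 and 0.089 RPM, and Mmp12 at 111, 58.7 and 114 RPM against 4.25, 4.09 and 2.505 RPM. Cd72, an inhibitory receptor gene of B cells that some myeloid cells also use, was at 200.2, 184 and 180.0 RPM against 8.95, 15.9 and 10.9 RPM (log2 fold change 3.80 ± 0.19, adjusted p = 7.89e-06). Klri1, a killer-cell lectin-like receptor gene, was at 56.5, 47.1 and 37.04 RPM against 1.77, 1.25 and 1.52 RPM, and H2-M2, a nonclassical MHC class I gene, at 30.8, 39.7 and 42.6 RPM against 0.695, 1.42 and 0.089 RPM. None of these genes overlapped between the subsets, but this was a condition for naming the largest changes and is no further result.

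**Figure D2:**
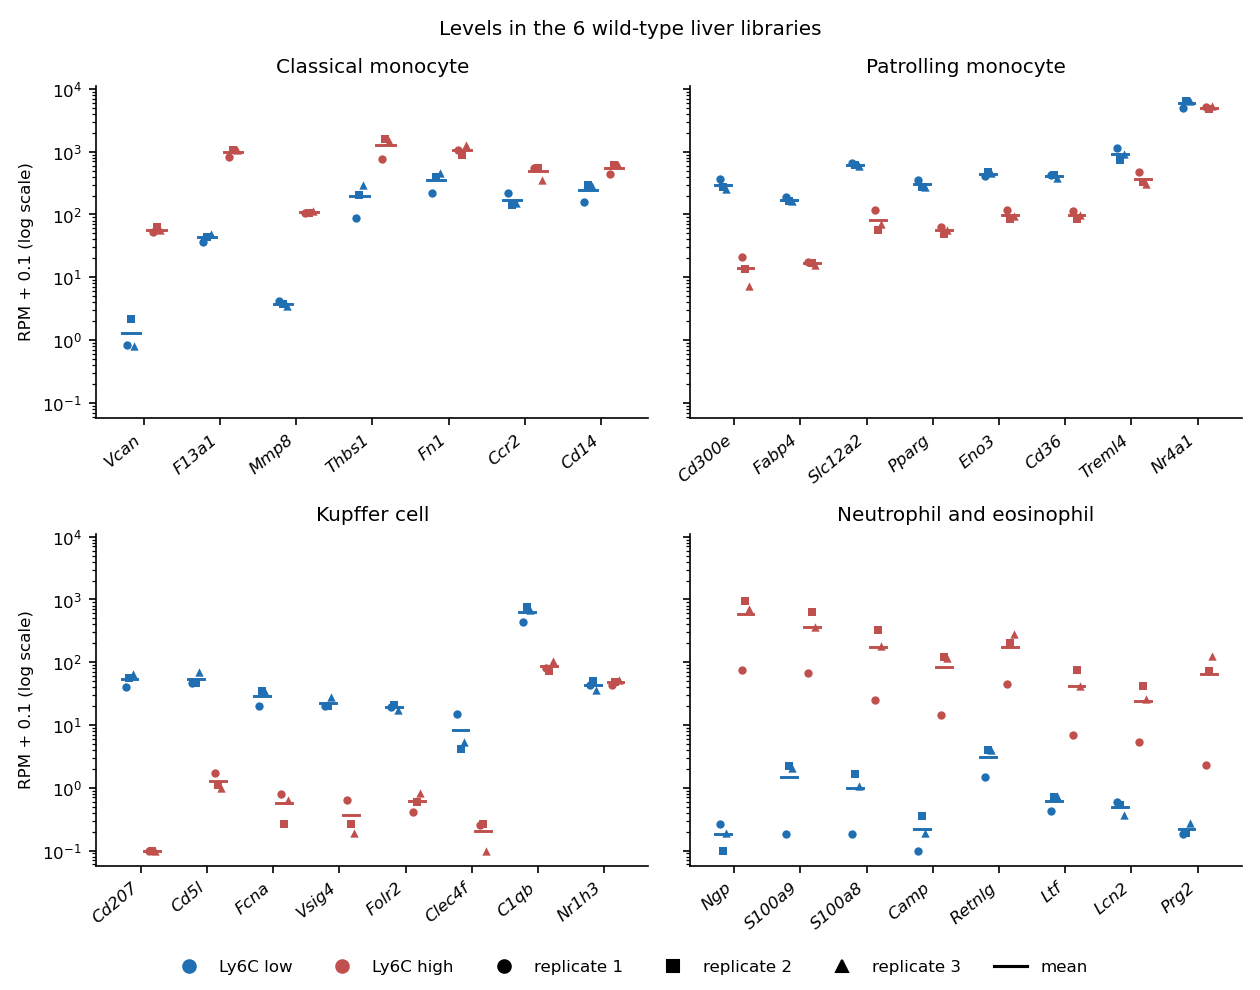
Levels of selected genes in each of the 6 libraries (y axis, RPM + 0.1, log scale); colors give the subset, marker shapes the replicate number, and panels the gene group. Lines mark the means. F13a1 and Vcan lie lower and Fabp4, Cd300e and Cd207 higher in all Ly6C low libraries, Nr4a1 overlaps, and in the last panel Ly6C high replicate 1 lies below replicates 2 and 3.

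Genes of patrolling monocytes were higher in Ly6C low macrophages for 18 of 27 tested members, and none was lower (median log2 fold change 0.927). Leaving out 1 library left 12 to 15 higher members. Fabp4, a fatty acid binding protein gene, was at 186, 163 and 167 RPM against 17.1, 16.9 and 15.8 RPM (log2 fold change 3.18 ± 0.14, adjusted p = 5.6e-06). Pparg, which encodes the nuclear receptor PPARγ, was at 358, 273 and 274 RPM against 63.9, 48.1 and 57.2 RPM (2.29 ± 0.19, adjusted p = 1.17e-04). Cd36, a scavenger receptor gene for oxidized lipids, was at 421, 429 and 388 RPM against 115, 84.7 and 99.02 RPM (1.94 ± 0.17, adjusted p = 1.56e-04). These lipid-handling genes had no overlap between subsets.

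Cd300e, an activating immunoglobulin-like receptor gene, was at 364, 269.9 and 257 RPM against 21.1, 13.3 and 7.25 RPM, 21.4-fold higher. Treml4, a TREM-like receptor gene, was at 1144, 749 and 915 RPM against 474, 329 and 304 RPM, and Ace, the angiotensin-converting enzyme gene, at 607, 489 and 459 RPM against 266, 249 and 295 RPM. Eno3, an enolase gene, and Slc12a2, an ion cotransporter gene, were 4.46-fold and 7.57-fold higher. Spn, which encodes CD43, was at 60.1 ± 11.9 RPM against 26.8 ± 5.803 RPM and lost its call without replicate 3 of Ly6C low and in the fit of all 29 libraries. Ace lost its call in the fit of all 29 libraries and with replicates 2 and 3 alone.

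Several genes that define patrolling monocytes did not pass the test in the liver. Nr4a1, whose product is required for these cells, was at 5025, 6375 and 6413 RPM in Ly6C low and 5078, 4717 and 5277 RPM in Ly6C high macrophages, and the subsets overlapped (log2 fold change 0.12 ± 0.17, adjusted p = 0.761). Cx3cr1, the receptor for fractalkine, was at 106, 70.5 and 81.96 RPM against 75.1, 68.9 and 60.02 RPM (0.21 ± 0.19, adjusted p = 0.591). Itgal, the α chain of the integrin LFA-1, was at 1653 ± 23.01 RPM against 1235 ± 45.1 RPM (0.31 ± 0.14, adjusted p = 0.205). Cebpb, which encodes a transcription factor of monocytes, was at 1799, 1446 and 1935 RPM against 1356, 2421 and 1296 RPM, with 1 Ly6C high library above and the others below all Ly6C low libraries.

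KC genes were higher in Ly6C low macrophages, most of them at a small share of their level in sorted KCs. Of 24 tested members 16 were higher and none was lower (median log2 fold change 1.59), and 12 to 15 were higher when 1 library was left out. Cd5l, which encodes the apoptosis inhibitor of macrophages (AIM), was at 46.6, 46.98 and 70.7 RPM against 1.62, 1.001 and 0.895 RPM and at 6345 ± 2853 RPM (SD, n = 4) in KCs. Vsig4, a complement receptor gene of resident macrophages, was at 19.7, 19.96 and 28.1 RPM against 0.54, 0.167 and 0.089 RPM and at 2218 ± 789 RPM in KCs. Clec4f, the lectin gene that defines KCs, was at 15.1, 4.01 and 5.19 RPM in Ly6C low libraries, at 0.154, 0.167 and 0 RPM in Ly6C high libraries and at 4197 ± 1709 RPM in KCs.

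Over the 16 higher members, the level in Ly6C low macrophages was between 0.193% and 244% of that in KCs, with a median of 2.98%, and 10 of the 16 stood under 5%. The highest share was that of Adrb1, an adrenergic receptor gene noted after its values were seen. The median for Ly6C high macrophages was 0.2265%. The KC libraries also held markers of other cells, with hepatocyte genes summing to 2009 to 6579 RPM and B cell genes to 1768 to 2421 RPM. The part of this in the shares was not tested. Timd4, which encodes TIM4, was at 0.57 ± 0.326 RPM in Ly6C low macrophages, under the minimum for testing, and at 365 ± 133 RPM in KCs. The KCs were sorted as Tim4(+), so that their Timd4 level is no finding. C1qb, a subunit of complement C1q, was at 433, 761 and 689.8 RPM against 81.4, 73.01 and 104 RPM (log2 fold change 2.72 ± 0.23, adjusted p = 1.51e-04) and reached 22.6% of the KC level. Cd207 reached 26.7%. Nr1h3, which encodes the nuclear receptor LXRα, was at 43.3 ± 7.08 RPM against 47.7 ± 4.75 RPM and did not pass the test (-0.25 ± 0.16, adjusted p = 0.413). Axl, a receptor gene for apoptotic cells, was at 101 ± 10.97 RPM against 108 ± 9.79 RPM and did not pass either (adjusted p = 0.453). Mertk, a receptor of the same family, was at 18.2 ± 3.37 RPM against 6.09 ± 3.06 RPM, but its call was lost without replicate 1 of Ly6C high or replicate 3 of Ly6C low, and in 2 other settings.

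Genes of capsular and serosal macrophages were higher for 10 and lower for 3 of 17 tested members. Prg4, which encodes the lubricating proteoglycan lubricin, was at 26.7, 50.9 and 80.98 RPM in Ly6C low and 0.154, 0.417 and 0.447 RPM in Ly6C high libraries, and at 0.991 ± 0.588 RPM in KCs. Alox15, a lipoxygenase gene of serosal macrophages and eosinophils, was at 69.8, 98.6 and 197 RPM against 5.02, 10.8 and 16.5 RPM, and at 1.69 ± 1.297 RPM in KCs. Both were thus lower in KC libraries than in every Ly6C low library. Cxcl13, a chemokine gene that guides B cells, was at 10.6, 71.6 and 65.9 RPM against 0, 0.584 and 0.895 RPM, with replicate 1 of Ly6C low well below replicates 2 and 3. The 3 lower members were F13a1, Thbs1 and Cd93, of which F13a1 and Thbs1 also belong to the classical monocyte list. Cd207, Cd163 and Timd4 are also in the KC list, Lyve1 in the sinusoidal endothelial list and Alox15 in the eosinophil list. Cdh5 is in both the KC and endothelial lists, and Clec1b in the KC and platelet lists. The counts of these lists are therefore not independent.

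Some markers of other liver cells were also higher. The sinusoidal endothelial list had 6 higher and no lower genes of 18 tested (median log2 fold change 1.31), and its genes summed to 493.3 to 912.0 RPM in Ly6C low, 273.1 to 326.1 RPM in Ly6C high and 6081 to 13750.0 RPM in KC libraries. The count of 6 fell to 3 without replicate 1 or 3 of Ly6C high or replicate 3 of Ly6C low, and rose to 14 without replicate 1 of Ly6C low. Lyve1, a hyaluronan receptor gene of this endothelium, was at 33.4, 52.7 and 39.9 RPM against 3.94, 5.01 and 7.51 RPM, and Pecam1, also read in monocytes, at 148, 153 and 153 RPM against 40.7, 40.9 and 38.1 RPM. Hepatocyte genes summed to 65.56, 254.1 and 211.8 RPM in Ly6C low replicates 1 to 3 and to 50.63 to 66.17 RPM in Ly6C high libraries; 1 of 14 tested, Alb for albumin, was higher, and its call was lost without replicate 3 of Ly6C low and in the fit of all 29 libraries. Without replicate 1 of Ly6C low 8 hepatocyte genes were higher, and with replicates 2 and 3 alone 6 were. Of 3 tested platelet genes, Pf4 for platelet factor 4, at 44.2, 70.4 and 114 RPM against 0.695, 5.09 and 1.25 RPM, and Clec1b, at 25.1, 31.5 and 31.5 RPM against 5.33, 4.92 and 5.55 RPM, were higher. Clec1b is read in KCs as well, at 489 ± 128 RPM, and the platelet list summed to 71.35 to 149.3 RPM in Ly6C low and 7.179 to 13.02 RPM in Ly6C high libraries. The part of such cells or their RNA in the higher KC genes was not tested.

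Few genes of the lymphocyte lists reached the minimum for testing. The B cell markers Ms4a1 and Pax5, chosen after their values were seen, stayed under the minimum for testing, while Cd22, Bank1 and Cd72 were the 3 higher of 5 tested genes in the B cell list, whose sum was 290.9 to 328.8 RPM against 56.65 to 64.23 RPM. Most of this sum in the Ly6C low libraries was Cd72, which some myeloid cells also use. Of the T cell list 1 of 3 tested genes was lower, and of the natural killer list 1 was higher and 2 were lower of 10 tested. Eosinophil genes had 2 higher members, Alox15 and Rnase2a (the latter noted after its values were seen), and 1 lower member, Prg2, of 6 tested, and the list summed to 218.3, 141.1 and 340.6 RPM against 30.49, 156.3 and 189.9 RPM. No gene of the erythroid list (2 tested) or of the stellate cell list (4 tested) was called. The list of basophils and mast cells had 1 higher and 1 lower of 4 tested, and that of plasmacytoid dendritic cells 1 higher and 4 lower of 10.

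**Figure D3:**
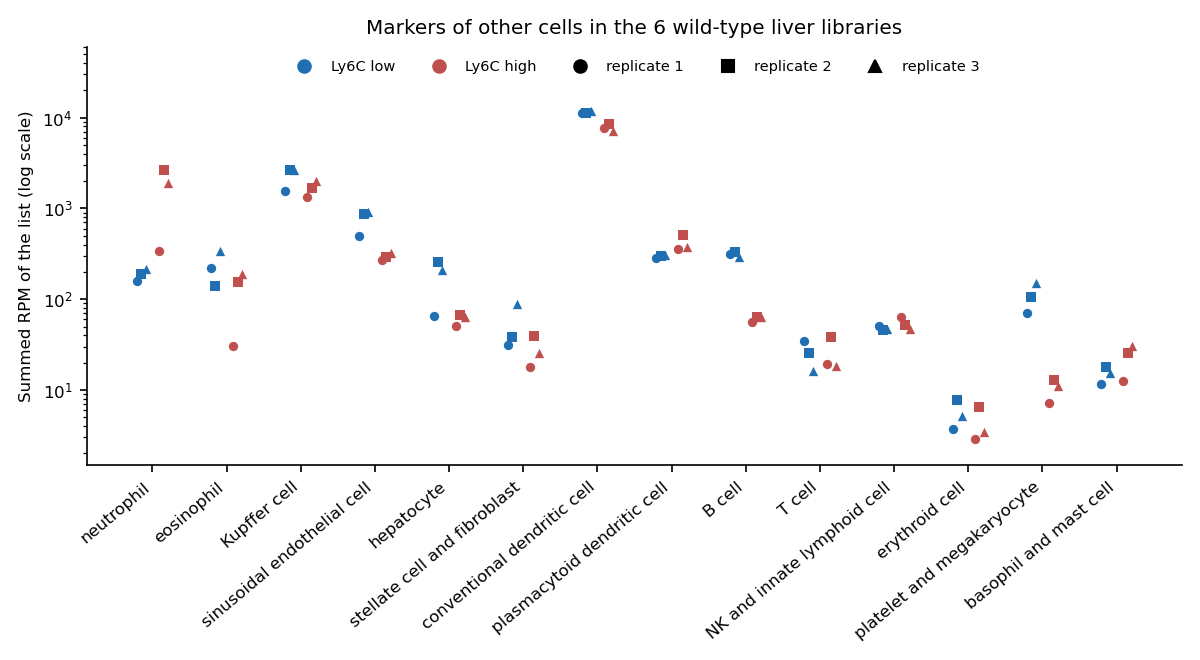
Summed RPM of marker lists of other cell types (y axis, log scale) in each of the 6 libraries; colors give the subset and marker shapes the replicate number. The neutrophil sum is highest in Ly6C high replicates 2 and 3, and the endothelial, platelet and B cell sums are higher in every Ly6C low library than in every Ly6C high one. Cd72, which some myeloid cells also use, makes up most of the B cell sum in Ly6C low libraries.

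Dendritic cell and antigen presentation genes were split. Of 21 tested genes of conventional dendritic cells 8 were higher and 2 were lower, and 3 were higher without replicate 3 of Ly6C low and 5 without replicate 3 of Ly6C high. Cadm1, an adhesion gene of cross-presenting dendritic cells, was at 61.3, 59.1 and 60.5 RPM against 1.24, 1.84 and 2.59 RPM (log2 fold change 4.35 ± 0.21, adjusted p = 7.43e-06). Zbtb46, which encodes a transcription factor of conventional dendritic cells, was at 21.2, 22.1 and 19.95 RPM against 3.09, 3.42 and 4.56 RPM. Flt3, the growth factor receptor of these cells, was at 22.4 ± 4.87 RPM against 16.6 ± 0.179 RPM and did not pass the test (adjusted p = 0.431), nor did Irf8, which encodes a further transcription factor of this lineage, at 332, 185 and 448 RPM against 266, 695 and 244 RPM.

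In the MHC class II pathway 5 of 19 tested genes were higher and 1 was lower. H2-Oa and H2-Ob encode both chains of H2-O, which restrains peptide loading by H2-M. H2-Oa was at 115, 128 and 103 RPM against 11.7, 10.9 and 7.78 RPM (log2 fold change 3.29 ± 0.19, adjusted p = 1.75e-05), and H2-Ob at 98.3, 76.96 and 66.7 RPM against 9.72, 11.8 and 8.41 RPM (2.78 ± 0.19, adjusted p = 4.75e-05). H2-DMb2, a chain of H2-M, was 4.81-fold higher. The peptide-presenting chain H2-Aa was at 4231 ± 594 RPM against 1951 ± 185 RPM, a difference that was no longer called without a filter or in the fit of all 29 libraries. The invariant chain gene Cd74, at 18480.0 ± 3706 RPM against 13120.0 ± 1242 RPM, and Ciita, which encodes the master regulator of the pathway, at 223 ± 28.9 RPM against 178 ± 29.6 RPM, did not pass the test. Cd40, the costimulatory receptor gene, was lower, at 45.9 ± 6.22 RPM against 121 ± 11.5 RPM, except in the fit of all 29 libraries.

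Interferon-stimulated genes (ISGs), which cells turn on when they sense interferon, were lower in Ly6C low macrophages. Of 34 tested ISGs 23 were lower and none was higher (median log2 fold change -0.948, range of the lower members -2.70 to -0.62), and 17 to 22 were lower when 1 library was left out. Ifi205, an interferon-inducible gene of a DNA-sensor family, was at 93.6, 109 and 85.7 RPM against 632, 572 and 539.8 RPM (-2.70 ± 0.15, adjusted p = 1.75e-05). Gbp2 and Gbp5, which encode guanylate-binding proteins that act on intracellular pathogens, were at 91.8 ± 6.86 RPM against 275 ± 76.2 RPM and at 45.1 ± 4.79 RPM against 133 ± 42.2 RPM. Both lost their call in the fit of all 29 libraries. Bst2, which encodes tetherin (CD317), was at 123, 129.6 and 158 RPM against 223, 289.9 and 220.1 RPM.

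To show what these promoters share, the letters GAAA, followed by any 2 bases and again GAAA, of the interferon-stimulated response element (ISRE) were searched on both strands in RefSeq promoters, from 250 bases before to 50 after the start site (GRCm38.p6). Of the promoters matched to tested genes with a single entry, 3.6% held a match, as did 12 of the 20 matched ISGs and 8 of the 11 matched ISGs that were lower. The windows of the ISGs named above read as follows in the direction of the gene, with the matches in capitals.
Ifi205: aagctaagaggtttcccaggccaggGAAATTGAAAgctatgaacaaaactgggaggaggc
Gbp2: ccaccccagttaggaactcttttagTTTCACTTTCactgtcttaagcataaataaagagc
Gbp5: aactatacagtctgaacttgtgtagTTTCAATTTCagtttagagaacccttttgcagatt
Bst2: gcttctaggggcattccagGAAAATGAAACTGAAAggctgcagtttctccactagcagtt
They lie at chr1:174031855-174031914 (reverse strand) for Ifi205, chr3:142620579-142620638 (forward strand) for Gbp2, chr3:142496744-142496803 (forward strand) for Gbp5 and chr8:71537562-71537621 (reverse strand) for Bst2. A match is a description of letters and not a bound site.

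Most of the called cytokine genes were lower. Of 26 tested cytokine genes 11 were lower and 3 were higher, with 6 lower without replicate 3 of Ly6C high and none higher without replicate 3 of either subset. Il1rn, which encodes the IL-1 receptor antagonist, was at 18.5, 25.4 and 27.02 RPM against 141, 178 and 150.5 RPM (log2 fold change -2.79 ± 0.18, adjusted p = 3.4e-05). Osm, which encodes oncostatin M, was at 30.7, 50.5 and 66.03 RPM against 178, 319 and 285 RPM (-2.52 ± 0.29, adjusted p = 6.91e-04). Neither gene overlapped between the subsets. Il1b, at 1243 ± 295 RPM against 1520.0 ± 372 RPM, Tnf, at 12.9 ± 1.41 RPM against 21.4 ± 9.14 RPM, and Il10, at 39.04 ± 21.7 RPM against 23.9 ± 12.8 RPM, did not pass the test. Il6 was at 3.64, 9.76 and 9.75 RPM against 16.6, 22.6 and 29.6 RPM and lost its call without replicate 3 of Ly6C high and without a filter.

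Of 21 tested chemokine genes 6 were higher and 6 were lower, with 3 higher without replicate 2 of either subset or replicate 3 of Ly6C low. Cxcl9 and Cxcl10, which attract activated T cells through CXCR3, were at 315, 797 and 583 RPM against 2262, 1890.1 and 2371 RPM and at 162, 323 and 319 RPM against 1028, 1024 and 1308 RPM. Both are also induced by interferon, and Cxcl9 lost its call in the fit of all 29 libraries. Ccl24, an eosinophil attractant, was at 85.6 ± 8.62 RPM against 191 ± 53.4 RPM, and lost its call in the same fit and with replicates 2 and 3 alone. On the other side, Cxcl13 and Pf4, given above, were the most different, and Ccl22, which attracts regulatory T cells, was at 135 ± 24.7 RPM against 55.5 ± 16.8 RPM, again except in the fit of all 29 libraries.

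Genes of alternative activation were higher for 8 and lower for 2 of 20 tested members, with 5 higher without replicate 3 of Ly6C high. Mrc1, the mannose receptor gene, was at 76.7, 107 and 96.7 RPM against 26.5, 40.6 and 32.7 RPM (log2 fold change 1.36 ± 0.18, adjusted p = 0.00168), and Folr2, a folate receptor gene of resident macrophages, at 19.1, 21 and 17.4 RPM against 0.309, 0.501 and 0.716 RPM. Arg1, which encodes arginase 1, overlapped between the subsets, at 14.9, 14.5 and 25.5 RPM against 32.03, 18.7 and 5.01 RPM (adjusted p = 0.931).

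Of 14 tested complement genes 6 were higher and 1 was lower, and 5 to 8 were higher when 1 library was left out. The lower gene, C3, was at 383, 728 and 516 RPM against 1920.2, 1728 and 1760.1 RPM and lost its call in the fit of all 29 libraries. C4b, at 11.8, 17.95 and 31.05 RPM against 1.08, 2.34 and 1.61 RPM, and the receptor gene C3ar1, at 51.7, 76.4 and 72.03 RPM against 17.5, 26.3 and 23.2 RPM, were higher. Among 22 tested Toll-like receptor and partner genes, 1 was higher and 4 were lower, and the latter were 2 to 5 when 1 library was left out. Tlr13, which encodes a sensor of bacterial ribosomal RNA, was at 54.1, 27.8 and 30.1 RPM in Ly6C low and 23.5, 25.6 and 22.99 RPM in Ly6C high libraries (log2 fold change 0.44 ± 0.24, adjusted p = 0.327). Tlr7, the sensor of single-stranded RNA, was at 490.4, 278 and 399 RPM against 327, 279 and 203 RPM (0.40 ± 0.25, adjusted p = 0.394). Neither was called: the subsets did not overlap for Tlr13 and did for Tlr7, and replicate 1 was the highest Ly6C low library in both.

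Of 19 tested genes of LXR and cholesterol efflux 5 were higher and 1 was lower. The median log2 fold change of the list was 0.0879, against 0.021 for all tested genes. Among the 5 were Cd5l and Mertk, which also belong to the KC list. The 5 became 3 without replicate 1 of Ly6C high or replicate 3 of Ly6C low and 7 without replicate 1 of Ly6C low. Pltp, which encodes a phospholipid transfer protein induced by LXR, was at 478, 553 and 441 RPM against 179, 137 and 192 RPM (log2 fold change 1.43 ± 0.18, adjusted p = 0.00132). Lpl, the lipoprotein lipase gene, of the lipid-associated macrophage list, was lower, at 91.4, 106 and 115 RPM against 297, 333 and 286 RPM (-1.66 ± 0.14, adjusted p = 1.56e-04). Npc2, a lysosomal cholesterol carrier gene and the 1 lower gene of the LXR list, was at 959, 1263 and 1154 RPM against 2811, 2506 and 2602 RPM. It was also 1 of 7 lower genes among 43 of the lysosome, where 2 were higher. The 7 fell to between 2 and 4 without replicate 3 of Ly6C low, replicate 1 of Ly6C low or replicate 2 or 3 of Ly6C high.

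Integrin and other adhesion genes were higher for 7 and lower for 6 of 26 tested. Itga6, the α6 chain of a laminin receptor, was at 76.2, 94.5 and 135 RPM against 9.96, 9.595 and 11.1 RPM (log2 fold change 3.06 ± 0.22, adjusted p = 6.02e-05). The tetraspanin gene Cd9 was 3.49-fold higher. Itga5, the α5 chain of the fibronectin receptor, was lower, at 29.7, 38.4 and 26.8 RPM against 81.7, 80.1 and 96.3 RPM, as was Icam1, the ligand of LFA-1, at 43.3, 65.97 and 62.5 RPM against 127, 140.3 and 143 RPM. Among 43 tested transcription factor genes of macrophages and monocytes, 6 were higher and 6 were lower, but 1 to 3 were higher when any 1 library was left out. Spi1, Maf and Irf8 did not pass the test.

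Genes of DNA replication were higher in Ly6C low macrophages. Of 26 tested S phase genes 10 were higher and none was lower (median log2 fold change 0.833), and 7 to 10 were higher when 1 library was left out. Mcm6 and Mcm7, subunits of the replicative helicase, were at 67.05, 59.5 and 51.8 RPM against 19.8, 18.7 and 20.6 RPM and at 86.9, 73.03 and 75.3 RPM against 25.01, 28.4 and 25.9 RPM (log2 fold changes 1.43 ± 0.16 and 1.42 ± 0.15, adjusted p = 6.77e-04 and 4.12e-04). Prim1, a primase subunit gene, was at 16.8, 12.5 and 11.7 RPM against 3.09, 4.25 and 3.399 RPM.

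Of 28 tested genes of mitosis 13 were higher and 1, Cenpa, was lower. Cenpa lost its call in 9 settings, among them without scaling factors, without a filter and in the fit of all 29 libraries. The higher count was 5 without replicate 3 of Ly6C low, 6 without replicate 1 of Ly6C high and 8 without replicate 1 of Ly6C low. With replicates 2 and 3 alone it was 2. Ccna2, which encodes cyclin A2, was at 24.4, 20.7 and 22.8 RPM against 5.71, 8.34 and 9.12 RPM and was called except in the fit of all 29 libraries. Mki67, which encodes the proliferation antigen Ki-67, was at 20.7, 24.8 and 26.8 RPM against 6.02, 11.3 and 16.2 RPM without overlap but did not pass the test (adjusted p = 0.0586).

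The promoter of Mcm6 is shown because E2F factors drive the genes of S phase. The letters TTTNGCGC were found in 2.6% of the promoters of tested genes, in 6 of 19 matched S phase genes and in 3 of the 6 of these that were higher. The window upstream of Mcm6 reads as follows in the direction of the gene, with the match in capitals; it is 1 of 3 matches within the 250 bases before the start site, and the others lie outside the printed window.
Mcm6: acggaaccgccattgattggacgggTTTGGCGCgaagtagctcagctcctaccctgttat
It lies at chr1:128359718-128359777 (reverse strand).

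Among the remaining lists, genes of the phagocyte oxidase and antimicrobial proteins were lower for 9 of 18 tested members and higher for none, and 9 or 10 were lower when 1 library was left out. Inflammasome genes were lower for 5 of 19 and genes of sterol synthesis and uptake for 4 of 17. NF-kB pathway genes were lower for 2 of 32, near the 4.84% of all tested genes, and none was higher in any of these lists. Without 1 library these counts ranged from 3 to 5, 2 to 5 and 2 to 4. Of 59 tested genes of the respiratory chain and 12 of cytosolic ribosomal proteins none was called. Genes of lipid-associated macrophages split evenly, with 5 higher and 5 lower of 14, the latter 2 to 5 without 1 library. Fc receptor genes, which include Fcgr4 of the gate, were higher for 5 and lower for 3 of 10, but for 1 to 3 in either direction without 1 library.

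**Figure D4:**
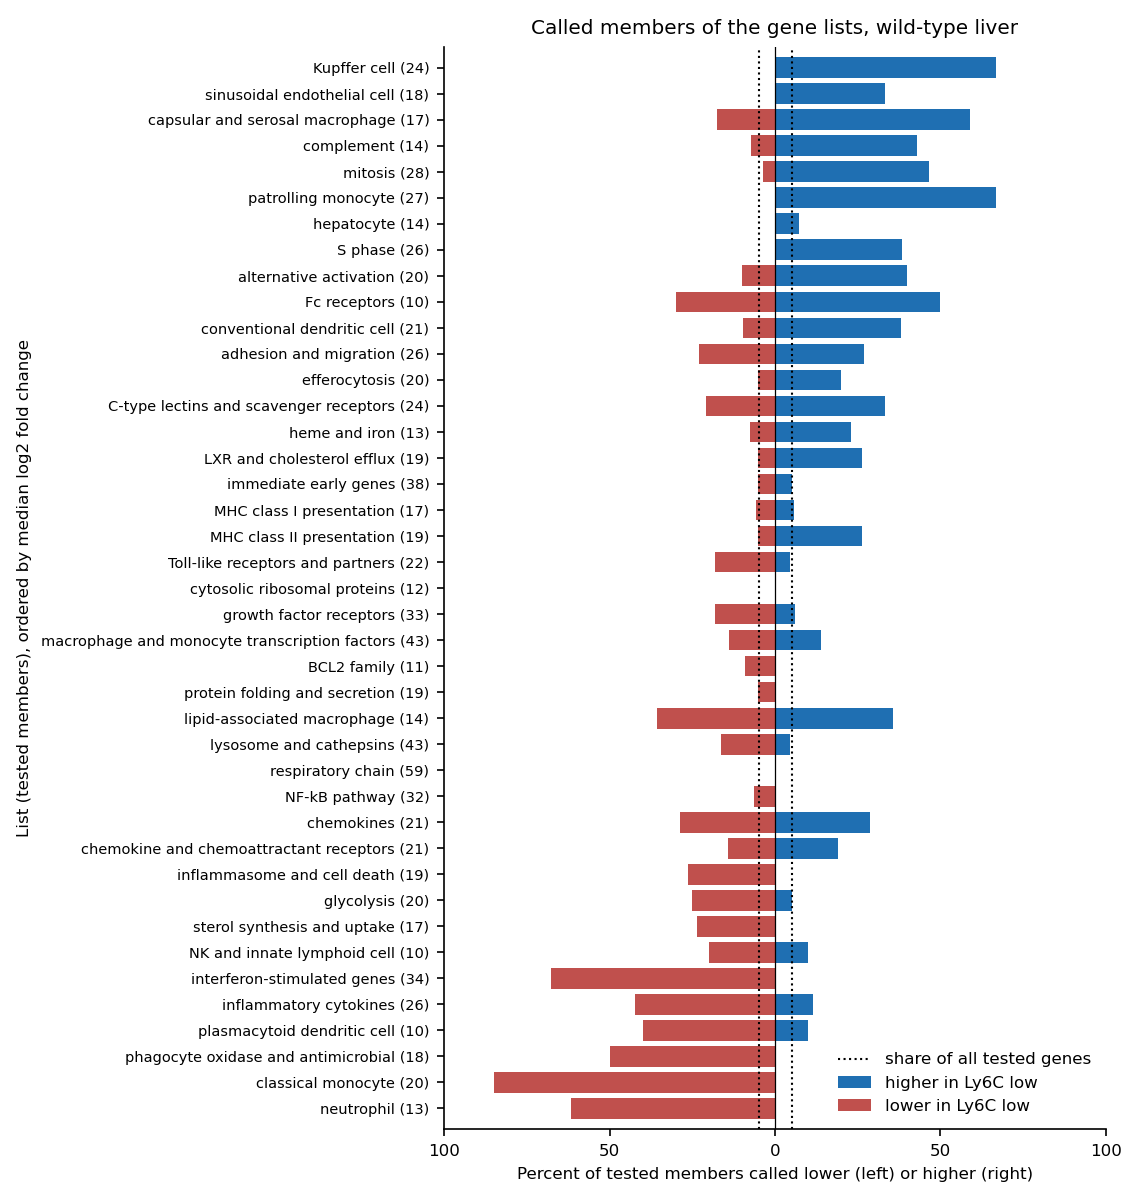
Percent of the tested members of each gene list called lower (left) or higher (right) in Ly6C low macrophages (x axis), for lists of at least 10 tested members, ordered by median log2 fold change (y axis). Dotted lines mark the shares of all tested genes, 4.84% and 5.24%. Classical monocyte genes and ISGs extend far to the left, patrolling monocyte and KC genes to the right.

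The same subsets from wild-type spleen, 3 libraries each, share no library with the hepatic ones. The gates on their labels are those of the liver. Y-linked genes summed to 0 to 0.14 RPM in these splenic libraries, against 28.95 to 52.03 RPM in replicates 2 and 3 of both hepatic subsets. The part of these sex-linked levels in the differences between organs was not tested. Of 10521 genes tested in spleen, 13.8% were called higher and 19.8% lower. Of the 612 genes higher in hepatic Ly6C low macrophages, 279 were also higher in spleen (45.6% of the liver calls and 19.2% of the spleen calls), 132 were lower in spleen (21.6%), 161 were not called and 40 were not tested. Of the 566 lower genes, 393 were lower in spleen as well (69.4% of the liver calls and 18.9% of the spleen calls) and 8 were higher. The difference of the differences, liver minus spleen, was called for 1304 genes upwards (10.6% of 12339) and 958 downwards (7.76%); without scaling factors the split was 1805 and 439.

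Patrolling monocyte genes differed less between the subsets in liver than in spleen. All 18 called in liver were higher in spleen too, and the difference was smaller in liver for 21 of 27 members and larger for none. Fabp4 had a log2 fold change of 5.60 in spleen and 3.18 in liver (liver minus spleen -2.38 ± 0.27, adjusted p = 3.75e-05, limma). Cd36 had 5.04 and 1.94 (liver minus spleen -3.09 ± 0.18, adjusted p = 3.69e-07). For Nr4a1, which was not called in liver, the spleen gave 4897 ± 426 RPM in Ly6C low and 1789 ± 20.6 RPM in Ly6C high macrophages (liver minus spleen -1.47 ± 0.19, adjusted p = 1.1e-04). Nr4a1 is also an immediate early gene, and that list summed to 32660.0 to 47300.0 RPM in hepatic Ly6C low and 38040.0 to 42560.0 RPM in hepatic Ly6C high libraries, against 20390.0 to 26640.0 RPM and 22130.0 to 22360.0 RPM in the same subsets of the spleen. The part of these sums in the Nr4a1 values was not tested. The splenic sums of the neutrophil list were 1228 to 2623 RPM in Ly6C low and 32140.0 to 34450.0 RPM in Ly6C high libraries, far above those of the liver, and the part of this in the spleen values was not tested.

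The cell cycle genes had opposite directions in the organs. The 10 S phase genes and 13 mitosis genes higher in hepatic Ly6C low macrophages were all lower in splenic ones, where 22 of 26 tested S phase genes and 29 of 29 tested mitosis genes were lower. The difference between organs was called upwards for 21 of 26 S phase genes and for 29 of 29 mitosis genes. Mki67 was at 7.76 ± 4.58 RPM in splenic Ly6C low and 112 ± 4.64 RPM in splenic Ly6C high macrophages (liver minus spleen 4.69 ± 0.47, adjusted p = 1.36e-05). For Mcm7 the difference was 2.46 ± 0.23 (adjusted p = 8.56e-06). Genes of T cells and of natural killer cells, which were lower in splenic Ly6C low macrophages for 13 of 13 and 17 of 17 tested members, moved with these values, and their part was not tested. Of 34 ISGs, 17 were lower in both organs, and the difference between organs was called for 4 upwards and 6 downwards. Cd207 was at 0.162 ± 0.0797 RPM and 0.0927 ± 0.041 RPM in the splenic subsets, and Mmp13 at 0.532 ± 0.138 RPM and 0.07 ± 0.121 RPM, and both had a larger difference in liver (5.67 ± 0.31 and 4.86 ± 0.30, adjusted p = 3.69e-07 and 4.43e-07).

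**Figure D5:**
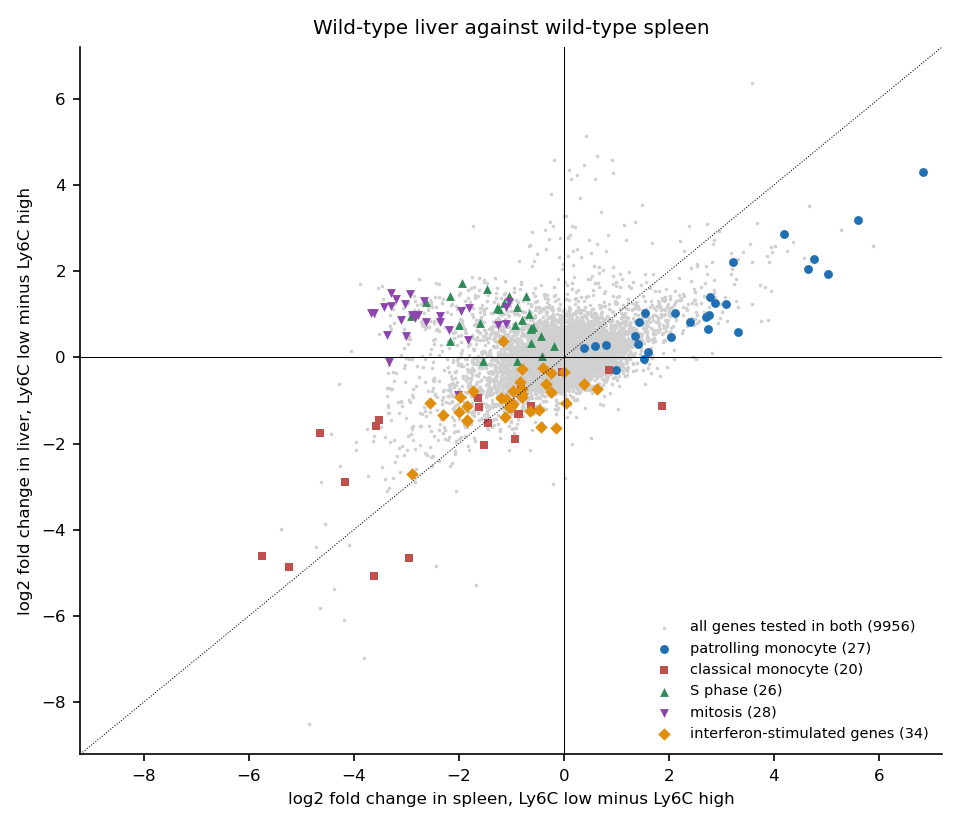
Log2 fold change between Ly6C low and Ly6C high macrophages in liver (y axis) against spleen (x axis) for genes tested in both organs, 1 point each, with members of 5 gene lists in color and a dotted line of equal change. Most mitosis and S phase genes lie above 0 in liver and below 0 in spleen, and most patrolling monocyte genes lie below the dotted line, with a smaller difference in liver.

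In Rnaset2-/- liver, 17% of 10895 tested genes differed between the subsets (8.75% higher and 8.26% lower in Ly6C low macrophages), and the difference of the differences, wild-type minus Rnaset2-/-, was called for 663 genes upwards (5.25% of 12626) and 642 downwards (5.08%), 10.3% in all. Leaving out 1 library gave 362 to 1321 and 322 to 1106, the lowest of both without replicate 3 of wild-type Ly6C low and the highest without replicate 1 of Rnaset2-/- Ly6C high, and 9 of the 12 libraries moved each count by more than 1.5-fold. The wild-type libraries are those of the comparison above. Retnla was at 0 in all Rnaset2-/- Ly6C low libraries and at 0.0513 ± 0.0889 RPM in Rnaset2-/- Ly6C high macrophages, against 413 ± 21.8 RPM and 3.702 ± 0.467 RPM in wild-type mice (difference 6.42 ± 0.26, adjusted p = 1.09e-07, limma). H2-M2 and Klri1, higher in wild-type Ly6C low macrophages, were at 5.16 ± 8.799 RPM and 0.949 ± 0.8 RPM in Rnaset2-/- Ly6C low and at 37.1 ± 51.4 RPM and 10.8 ± 4.89 RPM in Rnaset2-/- Ly6C high macrophages (differences 7.15 ± 1.54 and 6.57 ± 0.48, adjusted p = 0.0132 and 5.34e-05). For KC genes the difference was smaller in wild-type than in Rnaset2-/- liver for 9 of 29 members and larger for none. The KC list summed to 14040.0 to 21210.0 RPM in Rnaset2-/- Ly6C low and to 1503 to 4005 RPM in Rnaset2-/- Ly6C high libraries. In wild-type liver the sums overlapped, at 1562 to 2658 RPM in Ly6C low and 1332 to 2014 RPM in Ly6C high libraries. They include members that were not called, such as Hmox1, at 578 and 599 RPM (chosen after its values were seen). The sum of KCs themselves was 12140.0 to 33040.0 RPM. The immediate early list summed to 2589 to 11730.0 RPM in the Rnaset2-/- subsets and to 32660.0 to 47300.0 RPM in the wild-type subsets. Xist was at 0 to 0.154 RPM and Y-linked genes summed to 150.1 to 291.2 RPM in the Rnaset2-/- libraries of these subsets, against 321 to 539 RPM and 0 to 52.03 RPM in the wild-type ones, so that genotype and these sex-linked levels cannot be told apart. What part the sums of the KC and immediate early lists had in the differences between genotypes was not tested.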

How the data were processed

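Macrophage subsets were sorted from liver and spleen by the authors and lysed for RNA directly afterwards. Libraries were made with an Ion AmpliSeq transcriptome kit and read on an Ion Proton sequencer, and per the labels the reads were placed on mm10; the deposited values are RPM per gene, as given by the AmpliSeqRNA plug-in. The aligner's settings are not given in the sources used here. RPM values were whole multiples of 1 read within 0.1 reads for 100% of values, so that depth and read numbers could be recovered.

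RPM was divided by relative log expression factors and tested as log2(RPM + 1), so that fold changes understate the change of low genes, with limma 3.58.1 (R 4.3.3; trended moderation, two-sided, Benjamini-Hochberg adjustment), in a fit of the 6 wild-type liver libraries alone. The differences between organs and between genotypes were interaction terms of fits of 12 libraries each. Means, SDs and ratios are of RPM as deposited. edgeR 4.0.16 and DESeq2 1.42.0 on recovered reads, other filters, scalings, thresholds and left-out libraries were alternatives. Counts were simulated with 1 fixed dispersion of 0.05 for all genes, and only genes with a mean of at least 10 RPM were changed. In these simulated data the test recovered 63 of 100 genes changed 2-fold and 100 of 100 changed 4-fold in the liver comparison. It called 7 of 11466 unchanged genes. For liver minus spleen it recovered 19 and 91 of 100, and for wild-type minus Rnaset2-/- 20 and 97 of 100. These rates need not hold for lower genes or for genes that vary more between libraries.

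Genes are named by rule: the 15 largest changes in each direction with no overlap and a mean of at least 10 RPM in the higher group, a list of core genes, up to 3 called genes in each direction per list, and the 5 largest in each direction per interaction; others are said to be chosen after their values were seen. The members, the 48 gene lists and the rule were chosen with earlier results of these data known. Promoters are from RefSeq (GRCm38.p6, the assembly of mm10) and gene positions from GENCODE (GRCm38). Promoters were taken for genes with a single entry, 7316 of those tested. Python 3.11.15 was used for tables, motif searches and figures. Some genes are not reported here.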

Additional observations from a re-analysis of the deposited data

Results flagged for a closer look

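The difference between the subsets differed between liver and spleen, by a limma interaction test with an adjusted p below 0.05, for many genes, of which the 5 largest in each direction with a mean of at least 10 RPM in 1 of the 4 groups are given as log2 values of liver minus spleen. Upwards these were Cd207, at 5.67, Cdca3, a cell division gene, at 5.57, 2810417H13Rik, at 5.15, Iqgap3, a scaffold gene of dividing cells, at 5.12, and Mmp13, at 4.86. Cdca3 was at 13.96 ± 1.13 RPM in hepatic Ly6C low and 3.47 ± 1.34 RPM in hepatic Ly6C high macrophages, and at 3.79 ± 1.79 RPM and 73.1 ± 6.08 RPM in spleen. Downwards these were Ngp, at -3.73, Retnlg, at -3.61, Dusp16, a phosphatase gene, at -3.29, S100a9, at -3.18, and Cd36, at -3.09. Dusp16 was at 460.2 ± 33.4 RPM and 70.98 ± 12.03 RPM in liver and at 889 ± 67.6 RPM and 15.7 ± 1.72 RPM in spleen.

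The same test between genotypes, wild-type minus Rnaset2-/- liver, gave H2-M2, at 7.15, Klri1, at 6.57, Apol7c, an apolipoprotein L gene, at 6.53, Retnla, at 6.42, and Cacnb3, a calcium channel subunit gene, at 6.26, as the 5 largest upwards by the same rule. Apol7c was at 28.3 ± 6.54 RPM and 2.44 ± 1.15 RPM in wild-type Ly6C low and high macrophages and at 7.36 ± 12.02 RPM and 65.1 ± 70.3 RPM in Rnaset2-/- ones. Downwards these were Lipg, an endothelial lipase gene, at -5.07, Tmc3, at -4.58, Hs3st2, at -4.39, Lox, the lysyl oxidase gene, at -4.38, and AI606473, at -4.28. Lipg was at 0 in all wild-type Ly6C low libraries and at 0.526 ± 0.412 RPM in wild-type Ly6C high ones and at 162 ± 95.7 RPM and 6.63 ± 2.87 RPM in the Rnaset2-/- subsets, and all 5 of these genes were under the minimum for testing in wild-type liver alone.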

How the results depend on the processing

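No direction was reversed. Of 166 named genes called in wild-type liver, 97 kept their call under all 16 alternatives. The 612 genes higher in Ly6C low macrophages became 404 with at least 10 RPM and 407 without a filter, and the 566 lower genes became 339 with replicates 2 and 3 alone, 865 at an adjusted p below 0.1 with no fold threshold and 292 above 2-fold. Without 1 library they were 303 to 550 and 274 to 491. On recovered reads edgeR gave 587 and 525, and DESeq2 799 and 672. Of the 1304 genes upwards and 958 downwards for liver minus spleen, 839 were upwards with at least 10 RPM, and a single fit of all 29 libraries gave 680 and 342; downwards there were 439 without scaling factors, 1527 at an adjusted p below 0.1 and 353 above 2-fold. Leaving out 1 library gave 1038 to 1498 and 714 to 1238. The 663 upwards and 642 downwards for wild-type minus Rnaset2-/- became 1022 upwards with DESeq2, 1289 and 1038 in the fit of all 29 libraries, 312 and 239 with replicates 2 and 3 alone, 1032 and 1033 at an adjusted p below 0.1, and 340 downwards without scaling factors. Without 1 library they were 362 to 1321 and 322 to 1106. The cause of these shifts was not tested.

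Replicate numbers are shared between the subsets, but deviations of same-numbered libraries correlated at 0.597, -0.114 and -0.159, and Ly6C low replicate 2 correlated best with Ly6C high replicate 3 (0.713), so that the numbers were not taken as pairs. With a replicate block the counts in wild-type liver were 510 higher and 472 lower; those for liver minus spleen were 1202 and 779, and those for wild-type minus Rnaset2-/- 1134 and 795.

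Groups of 3 libraries recovered 63 of 100 2-fold changes simulated at a fixed dispersion of 0.05, so that a gene not called is not thereby shown to be alike. An exact permutation test of 3 against 3 libraries cannot fall below 0.1.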
